A study of Mus musculus with 36 samples.

Results

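The genes examined here are 4 inhibitors of DNA binding, Id1, Id2, Id3 and Id4, together with Smad6 and Bmp4, a set of BMP (bone morphogenetic protein) response genes and a BMP ligand. All peaks of 9 ChIP-seq peak lists whose midpoint lay within 50 kb of the body of any of these 6 genes were taken, with gene bodies from GENCODE vM1 on the mouse mm9 build. The rule gave 170 of 104813 peaks, around 6 of 22380 protein-coding genes. The rule uses positions only, but the genes were chosen with earlier results of these data known. The numbers of peaks below are measurements, given as descriptions because a peak list has no error of its own.

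The study profiled the NuRD complex in mouse embryonic stem cells (ESCs) and in the neural progenitor cells (NPCs) differentiated from them in vitro. Wild-type R1 ESCs, a mouse line grown in serum and LIF with the 2i inhibitors, were profiled for MBD3 and CHD4 in 2 replicates each and for SIN3A once without added spike-in chromatin and once with it. Wild-type R1-derived NPCs in NPC medium were profiled for MBD3 and CHD4 in 1 list each. ZFP296 was profiled in 1 list with a GFP antibody, in cells labelled ZFP296-BAC R1 ESCs in the same ESC medium. The other 27 of the 36 samples were not analysed here. The methods describe the GFP-ZFP296 line as a construct in KH2 ESCs, so the parent line of that list is given in different ways, and the tagged protein came from a transgene. Expression was not measured in these lists, so the identity of the ESCs and NPCs could not be checked against marker genes.

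BMP ligands such as BMP4 bind paired serine/threonine kinase receptors, which phosphorylate SMAD1, SMAD5 and SMAD9. These move to the nucleus with SMAD4 and switch on target genes, among which the Id genes and the inhibitory Smad6 are classic examples. ID proteins lack a DNA-binding region and hold E proteins in dimers that cannot bind DNA, and in mouse ESCs BMP4 acts together with LIF to maintain self-renewal through Id genes. MBD3 and CHD4 are subunits of NuRD, which remodels nucleosomes and removes acetyl groups from histones, SIN3A is the scaffold of another histone deacetylase complex, and ZFP296 is a zinc finger protein of ESCs.

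The DNA under the peaks is shown first for 6 windows of 300 bases near 5 of the genes, read from the + strand of mm9. They were picked from regions at which several lists met upstream or downstream of a gene, and not by a fixed rule. No window is shown for Bmp4. At Id3, regions near another gene, E2f2, were held by more lists and are not shown. At Id1, the region at -9.3 kb with 5 lists is not shown. The window of the SIN3A peak next to the start of Id1 was added after the strings in it had been seen. Capitals mark matches, on either strand, to GGCGCC (a GC-rich string bound by the BMP SMADs, its own reverse complement), CAGAC (the SMAD box), CCATTGT (a SOX2 string), TGACTCA (AP-1) and TTCNNNGAA (STAT). The octamer ATGCAAAT and the AP-1 string had no match in the windows shown. A window of the Id1 region not shown, at -9.35 kb, held 1 AP-1 string. E boxes (CANNTG, the string that E proteins bind) were counted but not capitalised, and no capitalised strings overlapped each other in these windows.
Id1, upstream SIN3A window, chr2:152560745-152561044: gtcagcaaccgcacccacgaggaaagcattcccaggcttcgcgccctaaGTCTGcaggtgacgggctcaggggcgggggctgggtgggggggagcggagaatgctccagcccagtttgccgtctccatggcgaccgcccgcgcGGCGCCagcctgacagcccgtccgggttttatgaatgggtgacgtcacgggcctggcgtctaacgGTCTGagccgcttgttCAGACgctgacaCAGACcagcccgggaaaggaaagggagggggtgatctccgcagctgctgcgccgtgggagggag
Id1, upstream window with MBD3, CHD4 and SIN3A, chr2:152553989-152554288: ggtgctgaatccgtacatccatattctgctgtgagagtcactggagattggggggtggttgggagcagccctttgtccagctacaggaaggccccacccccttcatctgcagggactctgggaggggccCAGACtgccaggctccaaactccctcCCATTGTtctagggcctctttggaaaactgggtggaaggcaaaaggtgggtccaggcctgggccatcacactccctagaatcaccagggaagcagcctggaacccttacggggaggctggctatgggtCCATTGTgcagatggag
Id2, upstream SIN3A window, chr12:25783591-25783890: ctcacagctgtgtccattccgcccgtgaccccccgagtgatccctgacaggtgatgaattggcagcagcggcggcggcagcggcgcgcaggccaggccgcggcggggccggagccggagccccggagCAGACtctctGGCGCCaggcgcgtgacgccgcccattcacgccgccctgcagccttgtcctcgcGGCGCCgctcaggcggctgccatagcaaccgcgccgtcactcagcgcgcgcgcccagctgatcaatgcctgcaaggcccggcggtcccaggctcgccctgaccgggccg
Id3, downstream window with MBD3, CHD4, SIN3A and ZFP296, chr4:135702648-135702947: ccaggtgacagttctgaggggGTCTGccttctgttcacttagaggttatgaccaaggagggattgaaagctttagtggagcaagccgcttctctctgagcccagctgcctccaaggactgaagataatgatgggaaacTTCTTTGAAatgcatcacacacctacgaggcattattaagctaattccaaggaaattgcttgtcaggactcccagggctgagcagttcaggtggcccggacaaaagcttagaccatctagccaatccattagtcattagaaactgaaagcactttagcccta
Id4, upstream window with MBD3 and CHD4, chr13:48340906-48341205: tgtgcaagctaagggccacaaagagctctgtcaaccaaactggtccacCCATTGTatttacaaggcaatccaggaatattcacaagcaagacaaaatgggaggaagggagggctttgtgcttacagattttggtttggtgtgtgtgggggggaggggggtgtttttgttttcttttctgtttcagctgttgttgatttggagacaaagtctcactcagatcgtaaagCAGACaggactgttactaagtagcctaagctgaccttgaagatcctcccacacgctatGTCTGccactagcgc
Smad6, upstream window with CHD4 and SIN3A, chr9:63897956-63898255: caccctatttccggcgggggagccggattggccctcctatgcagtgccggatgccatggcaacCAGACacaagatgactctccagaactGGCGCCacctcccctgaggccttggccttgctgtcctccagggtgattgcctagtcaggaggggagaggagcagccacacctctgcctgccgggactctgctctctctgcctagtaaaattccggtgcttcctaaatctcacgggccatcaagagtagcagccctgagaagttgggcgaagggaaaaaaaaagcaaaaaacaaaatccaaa
All 6 windows lie outside annotated exons. The Id1 SIN3A window held 1 GGCGCC and 4 CAGAC strings in 67.0% G and C, the densest set of SMAD strings among the 6. The Id2 window held 2 GGCGCC and 1 CAGAC in 74.0% G and C, and the Smad6 window held 1 of each. The windows of Id1 at -7.85 kb, of Id3 and of Id4, at which MBD3 and CHD4 lists met, held no GGCGCC, and those of Id1 and Id4 held 2 and 1 SOX2 strings. The windows do not part by factor. CHD4 replicate 2 peaks also reached into the Id1 and Id2 SIN3A windows, and SIN3A peaks into the Id1 window at -7.85 kb and the Id3 window.

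**Figure D1:**
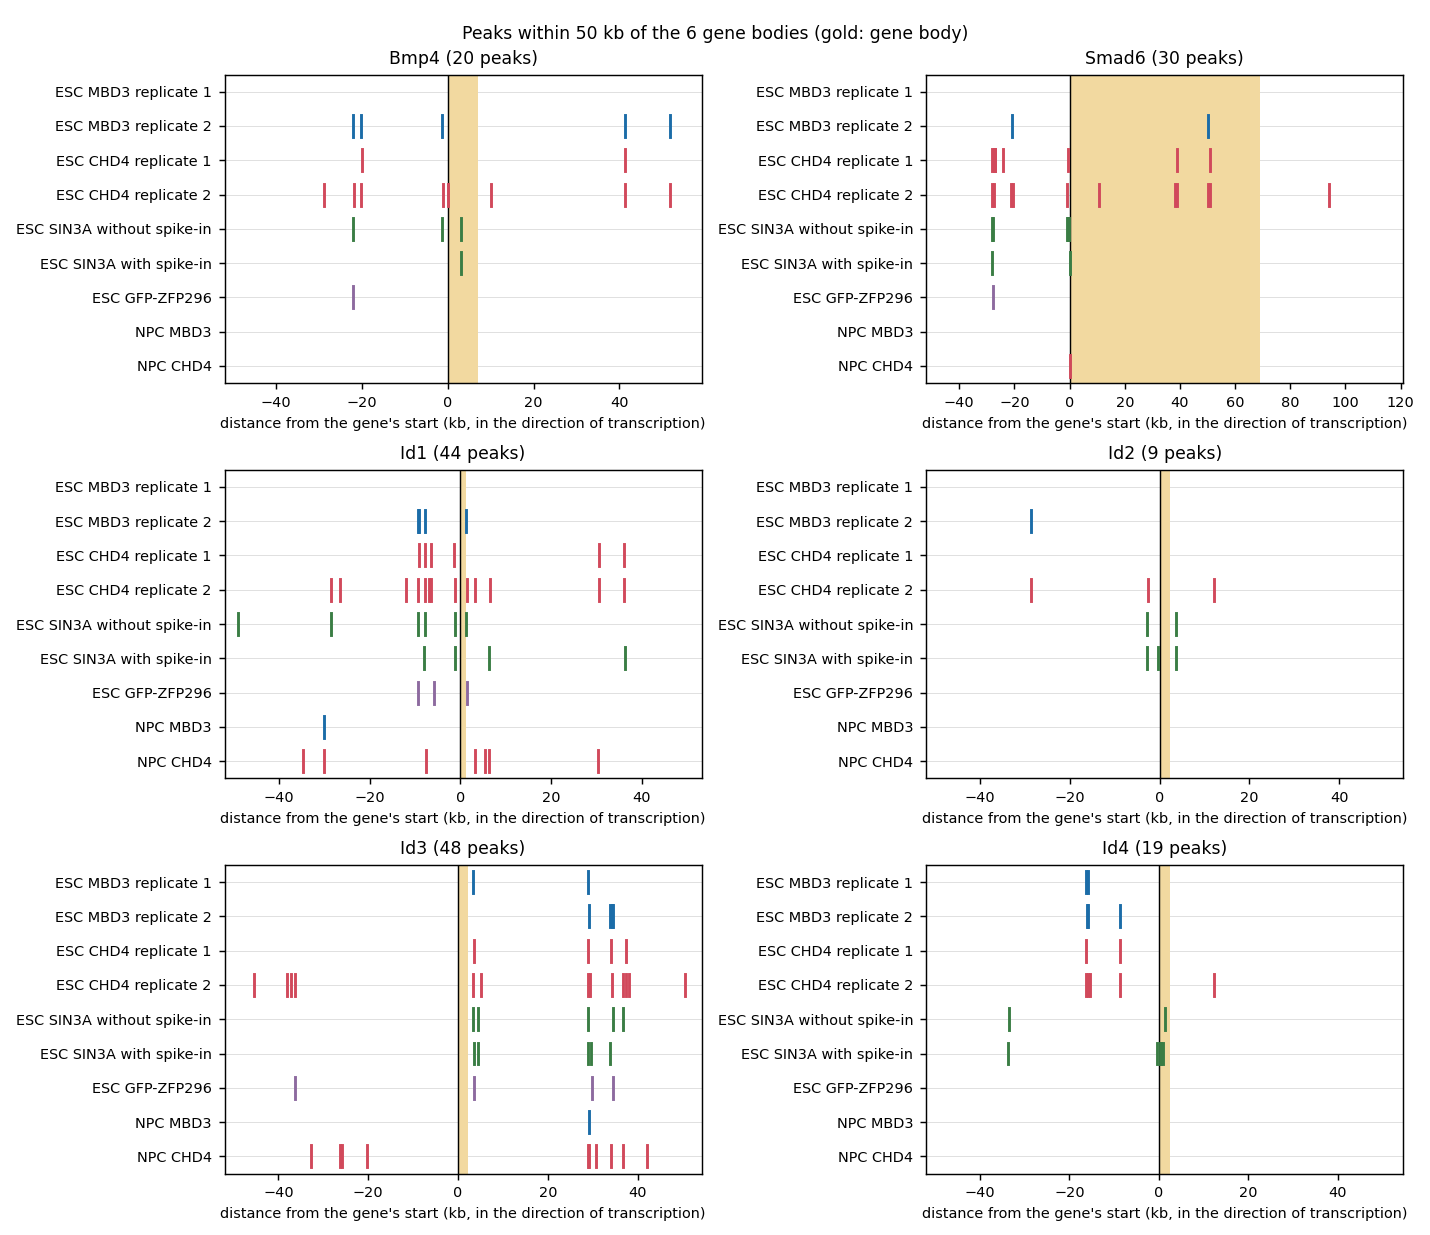
Each mark is 1 peak, placed by the distance of its midpoint from the gene's annotated start in kb (negative values are upstream), with 1 row for each of the 9 lists and the gene body in gold. ESC peaks lie around all 6 genes, whereas the NPC rows hold marks at Id1, Id3 and, once, at the start of Smad6.

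Peaks overlapping in any list were merged into 78 regions, of which 61 held ESC peaks only, 9 held NPC peaks only and 8 held both. Over the whole series 6.63% of 62184 merged regions held ESC and NPC peaks. Shares over the series were not taken for ESC-only, NPC-only and single-list regions. Most of the 9 lists came from ESCs, so the ESC-only and NPC-only counts cannot be compared directly. Of the 78 regions, 39 came from a single list, and 18 of these were peaks of ESC CHD4 replicate 2 alone. All 29974 peak names of that list refer to a Zfp219 BAC although its label gives wild-type cells, and it supplied 53 of the 170 peaks, so 117 peaks in 62 regions stood without it. Peaks of 5 or more lists met in 6 regions, against 3.29% of regions over the series. Without ESC CHD4 replicate 2 this held for 2 regions, at +3.5 kb and at +29.0 kb of Id3.

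By factor, ESC CHD4 peaks were present in 53 regions, SIN3A peaks in 31, MBD3 peaks in 16 and ZFP296 peaks in 9. These counts have no share over the series beside them, and CHD4 and SIN3A had the longest ESC lists. All 16 regions with ESC MBD3 also held an ESC CHD4 peak, against 74.7% of MBD3 regions over the series, and all 19 peaks of MBD3 replicate 2 overlapped CHD4 replicate 2, against 72.5% of that MBD3 list. With CHD4 replicate 1 alone, CHD4 was present in 22 regions in place of 53, and in 9 of the 16 MBD3 regions, against 42.6% over the series. SIN3A was the sole factor, in either cell type, in 13 regions, 6 of them at Id4. ESC CHD4 peaks without any other factor or NPC peak made up 26 regions, 10 of them at Smad6, the member with the longest body. Shares over the series were not taken for these classes. Of the 78 regions, 25 were centred from 1 kb upstream to 5 kb downstream of an annotated start, against 32.7% of all merged regions. Intergenic regions numbered 42, and their share over the series was not taken.

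The 9 lists differed in length, from 2304 peaks for NPC MBD3 to 29974 for ESC CHD4 replicate 2, and each count is therefore set beside the share of all protein-coding genes with at least 1 peak of that list within 50 kb. ESC MBD3 peaks were found at 2 of the 6 genes in replicate 1, with 15.8% of all genes, and at 6 of 6 in replicate 2, with 33.2%. ESC CHD4 peaks were found at 5 of the 6 genes in replicate 1 (43.0% of all genes) and at 6 in replicate 2 (67.6%). All 6 genes had SIN3A peaks in each preparation, as did 65.1% of all genes without and 59.2% with spike-in, and 4 of the 6 had ZFP296 peaks (21.9%). NPC MBD3 peaks were found at 2 genes (15.7%) and NPC CHD4 peaks at 3 (57.9%). Both NPC MBD3 peaks were nearest to the start of another gene, Mcts2 at Id1 and E2f2 at Id3.

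Sites were also taken only where both ESC lists of a factor had a peak. MBD3 sites were present at 2 of the 6 genes, Id3 and Id4, and at 10.1% of all genes. The site counted at Id3 was nearest to the start of E2f2. CHD4 sites were present at 5 genes (all but Id2), against 36.8%, and SIN3A sites at 6, against 53.5%. The replicate lists overlapped around the 6 genes for 3 of 4 peaks of MBD3 replicate 1 (64.3% of that list) and for 19 of 22 peaks of CHD4 replicate 1 (70.4%). For SIN3A, 10 of the 20 peaks with spike-in had a partner in the list without it, compared with 77.4% of the whole list. The SIN3A lists differ in preparation and in threshold (0.001 with and 0.0001 without spike-in), which cannot be told apart.

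**Figure D2:**
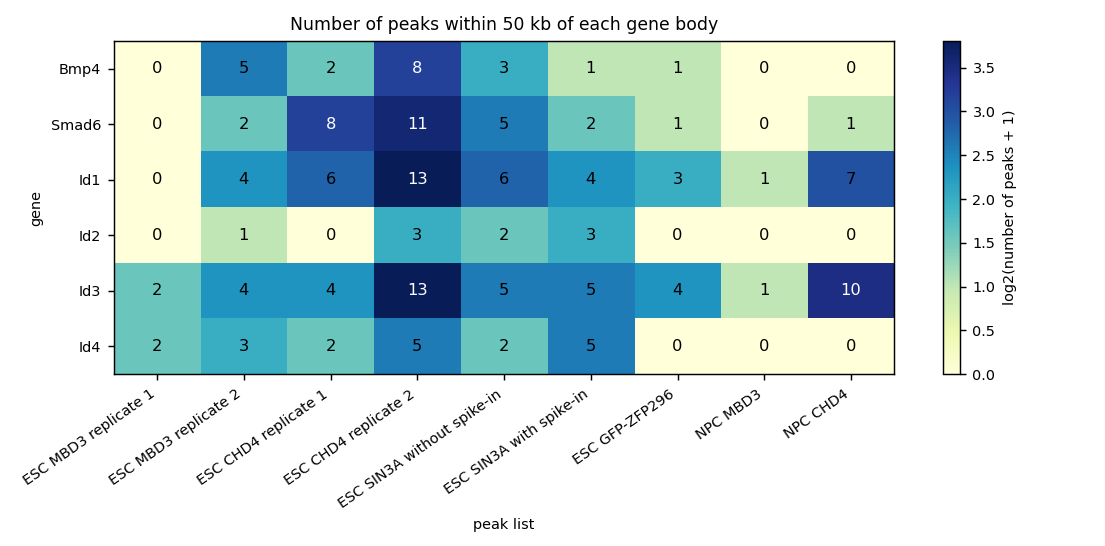
Each cell gives the number of peaks of 1 list (columns) within 50 kb of 1 gene (rows), coloured by log2(number + 1). The highest counts are 13 peaks of ESC CHD4 replicate 2 at Id1 and at Id3, and the NPC columns are 0 for Bmp4, Id2 and Id4.

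Bmp4, the ligand, lies on the minus strand at chr14:47003195-47010344 and had 20 peaks in 6 lists and 9 regions. MBD3 replicate 2 gave 5 peaks, a number reached by 2.37% of all genes, while MBD3 replicate 1 gave 0. CHD4 gave 2 peaks in replicate 1 and 8 in replicate 2. SIN3A gave 3 peaks without and 1 with spike-in, ZFP296 gave 1, and both NPC lists gave 0. Each peak carries the authors' -log10 value, which is higher for stronger statistical support and is compared here only within a list. In the second MBD3 and CHD4 replicates the peaks of highest value lay upstream of Bmp4 and not at its start. At -20.11 kb CHD4 replicate 2 had its highest Bmp4 peak, with an authors' value of 24.0 on the -log10 scale, above 96.9% of that list, and MBD3 replicate 2 had its highest at -20.21 kb with 16.1, above 92.1% of its list. The single ZFP296 peak lay at -22.03 kb, overlapping MBD3 and CHD4 peaks of replicate 2 and a SIN3A peak without spike-in, with a value of 9.25. At the start itself CHD4 replicate 2 had a peak at 0.16 kb with a value of 6.99, above 28.5% of its list, and the highest SIN3A peaks of both preparations lay within the gene, at 3.21 kb with 10.9 without and at 3.12 kb with 7.98 with spike-in. CHD4 replicate 1 had 2 peaks of equal value, 7.42, at -19.99 and 41.19 kb. Of the 20 peaks, 6 were nearer to the start of Gm15217 than to that of Bmp4.

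Smad6, the inhibitory SMAD that blocks BMP receptor signalling, lies on the minus strand at chr9:63800953-63869866 and had 30 peaks in 7 lists and 16 regions. CHD4 gave 8 peaks in replicate 1 and 11 in replicate 2, numbers reached by 3.47% and 7.02% of all genes. The Smad6 window is longer than the others, since its body spans 68914 bp against 1160 to 7150 bp for the other members. Counts were not scaled for this. MBD3 gave 0 peaks in replicate 1 and 2 in replicate 2. SIN3A gave 5 peaks without and 2 with spike-in, ZFP296 gave 1, NPC CHD4 gave 1 and NPC MBD3 gave 0. CHD4 was thus the factor with the most peaks at Smad6 in both replicates, and its peaks fell mainly in an upstream cluster and in the introns. The highest CHD4 peaks of Smad6 were an intronic peak at 38.85 kb with 9.63 in replicate 1 (above 64.6% of its list) and a peak at -21.07 kb with 13.2 in replicate 2 (above 80.2%), and the highest MBD3 peak was intronic at 50.28 kb with 11.04. In replicate 1, 4 CHD4 peaks lay between -28.06 and -26.9 kb and a further peak at -24.07 kb. The intergenic region at -28.0 kb (chr9:63897608-63898189) also held both SIN3A lists, with the highest SIN3A peak with spike-in (7.98), and, outside the printed window, the ZFP296 peak, which at 3.84 stood above 1.87% of its list. At the start, the SIN3A list without spike-in had 3 peaks, the highest at -0.85 kb with a value of 23.7, above 90.5% of that list. The NPC CHD4 peak lay at -0.03 kb with a value of 8.97, above 49.5% of its list, and overlapped SIN3A peaks of both ESC preparations. It was the only NPC peak at Smad6. No other protein-coding gene body reached into the window of Smad6 or Id4.

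Id1, the best known BMP target of the family, lies on the plus strand at chr2:152561987-152563146. It had 44 peaks in 8 lists and 18 regions. MBD3 gave 0 and 4 peaks in replicates 1 and 2, CHD4 gave 6 and 13, SIN3A gave 6 without and 4 with spike-in, and ZFP296 gave 3. In NPCs, MBD3 gave 1 peak and CHD4 gave 7, a number reached by 5.11% of all genes. Only MBD3 replicate 1 had no peak at Id1. Of the 44 peaks, 31 were nearer to the start of Id1 than to any other, and the rest lay nearer to the starts of Cox4i2 or Mcts2.

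Among the Id1 regions, 3 upstream places are described here. Peaks also lay downstream of the start. The region at 1.3 kb held 4 lists, MBD3 replicate 2, CHD4 replicate 2, SIN3A without spike-in and ZFP296. The region at -9.3 kb (chr2:152552332-152553053, intergenic) held MBD3 replicate 2, both CHD4 lists, SIN3A without spike-in and ZFP296, and here CHD4 replicate 2 had its highest Id1 peak with a value of 19.9, above 94.1% of its list. CHD4 replicate 1 had 5.81 in the same region, above 18.1% of its list, SIN3A without spike-in 7.07, above 8.53%, and ZFP296 5.04, above 10.4%. The region at -7.8 kb (chr2:152554005-152554407, intergenic) held the same ESC lists but for ZFP296, together with an NPC CHD4 peak. MBD3 replicate 2 had its highest Id1 peak there, at -7.85 kb with a value of 13.5, above 85.1% of its list, while the NPC CHD4 peak at -7.66 kb stood at 5.74, above 14.3%. The third place, at -1.2 kb, is named here after its values were seen and held both CHD4 and both SIN3A lists without MBD3. CHD4 replicate 1 had its highest Id1 peak there, at -1.36 kb with 13.9, above 87.1% of its list, whereas the replicate 2 peak at -1.28 kb had 7.00, above 31.1%. The SIN3A peaks of that place, at -1.09 and -1.15 kb, had values of 8.57 and 6.35, above 23.3% and 22.8% of their lists, and lie over the first window printed above. The highest SIN3A peaks of Id1 lay elsewhere, at -28.44 kb over an exon of H13 with 16.4 without spike-in and at 6.38 kb with 11.9 with spike-in, and the highest ZFP296 peak lay at 1.47 kb with 8.44.

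In NPCs the highest Id1 peak of CHD4 lay downstream at 5.44 kb, with a value of 15.6, above 86.7% of that list, and no ESC list had a peak that overlapped it. The NPC MBD3 peak lay at -30.11 kb over an exon of H13, with a value of 4.50, above 3.26% of its list. It overlapped an NPC CHD4 peak and no ESC peak.

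Id2 lies on the minus strand at chr12:25778666-25780957 and had the fewest peaks, 9 in 4 lists and 5 regions. MBD3 gave 0 peaks in replicate 1 and 1 in replicate 2, and CHD4 gave 0 and 3. SIN3A gave 2 peaks without and 3 with spike-in. ZFP296 and both NPC lists gave 0. SIN3A was the only factor present at Id2 in both of its ESC lists. Its highest peak lay in each preparation upstream of the start, at -2.76 kb with 15.6 (above 71.2% of the list) without and at -2.78 kb with 12.4 (above 77.9%) with spike-in, and CHD4 replicate 2 had its highest Id2 peak at -2.61 kb with 9.37. The MBD3 peak at -28.65 kb had a value of 3.51, above 0.795% of its list.

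Id3 lies on the plus strand at chr4:135699412-135701670 and was the only member with peaks in all 9 lists, 48 in 20 regions. MBD3 gave 2 and 4 peaks in replicates 1 and 2, CHD4 gave 4 and 13, and SIN3A gave 5 in each preparation. ZFP296 gave 4 peaks, a number reached by 1.23% of all genes. In NPCs, MBD3 gave 1 peak and CHD4 gave 10, a number reached by 1.50% of all genes. The window of Id3 holds E2f2, a cell-cycle transcription factor gene, and 29 of the 48 peaks were nearest to a start of E2f2, while 17 were nearest to the start of Id3.

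Among the peaks nearest to the start of Id3, most lists met in a region at +3.5 kb (chr4:135702631-135703218), past the end of the gene. It held 6 ESC lists and no NPC list. The value there was 18.0 in MBD3 replicate 1 (above 95.1% of its list), 15.2 and 12.1 in CHD4 replicates 1 and 2 (above 89.8% and 76.8%) and 18.5 for ZFP296 (above 94.4%). In SIN3A it was 27.2 without and 11.4 with spike-in, above 93.9% and 72.9% of the lists. MBD3 replicate 2 had no peak there, so it did not count as an MBD3 site of both replicates. Of the CHD4 replicate 2 peaks nearest to the start of Id3, the highest lay upstream at -37.26 kb, with 18.3, above 92.4% of its list. The 4 NPC CHD4 peaks nearest to the start of Id3 lay upstream, between -32.85 and -20.29 kb, with values from 4.75 to 8.43, and none overlapped an ESC peak. The highest NPC CHD4 peak of the window lay on the E2f2 side at 36.66 kb, with 20.1, above 94.3% of its list, in the same region as the highest of CHD4 replicate 2 at 36.71 kb, with 19.98, above 94.4%.

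On the E2f2 side, the region at +29.0 kb (chr4:135727999-135728840) held 8 lists, all but ZFP296. MBD3 replicates 1 and 2 had values of 16.2 and 19.6 there, above 92.6% and 96.1% of their lists, and NPC MBD3 had 19.9, above 95.9%. This was the only place around the 6 genes at which ESC and NPC MBD3 met. A further region in an E2f2 intron, at +34.2 kb (chr4:135733127-135734170), held 7 lists, with ZFP296 and NPC CHD4 but with neither MBD3 replicate 1 nor NPC MBD3. These lists were joined into a single region by a CHD4 replicate 2 peak of 1013 bp. The ZFP296 peak at 34.61 kb and the NPC CHD4 peak at 34.18 kb did not overlap each other.

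Id4 lies on the plus strand at chr13:48356796-48359405 and had 19 peaks in 6 lists and 10 regions. MBD3 gave 2 peaks in replicate 1 and 3 in replicate 2, and CHD4 gave 2 and 5. SIN3A gave 2 peaks without and 5 with spike-in. ZFP296 and both NPC lists gave 0. All MBD3 peaks and all CHD4 peaks but the replicate 2 peak at 12.27 kb lay upstream, and SIN3A peaks lay around the start and far upstream. The region at -15.9 kb, named after its values were seen, held both MBD3 and both CHD4 lists, and both MBD3 replicates met only there and in the +29.0 kb region of Id3. The highest MBD3 and CHD4 peaks of Id4 in replicate 2 shared a region at -8.6 kb, with 13.9 at -8.64 kb for MBD3 (above 86.8% of its list) and 13.2 at -8.57 kb for CHD4 (above 81.2%). In replicate 1 the highest CHD4 peak lay there too, with 7.64, and the highest MBD3 peak lay at -15.78 kb with 6.68. The SIN3A list with spike-in had 4 peaks across the start, from -0.31 to 0.87 kb, with values from 4.90 to 11.1, whereas the list without had 1 peak near it, at 1.37 kb with 9.20. Both SIN3A lists had a peak at about -33.6 kb, with 48.2 without spike-in, above 98.9% of that list and the highest value among all peaks of that list around the 6 genes.

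**Figure D3:**
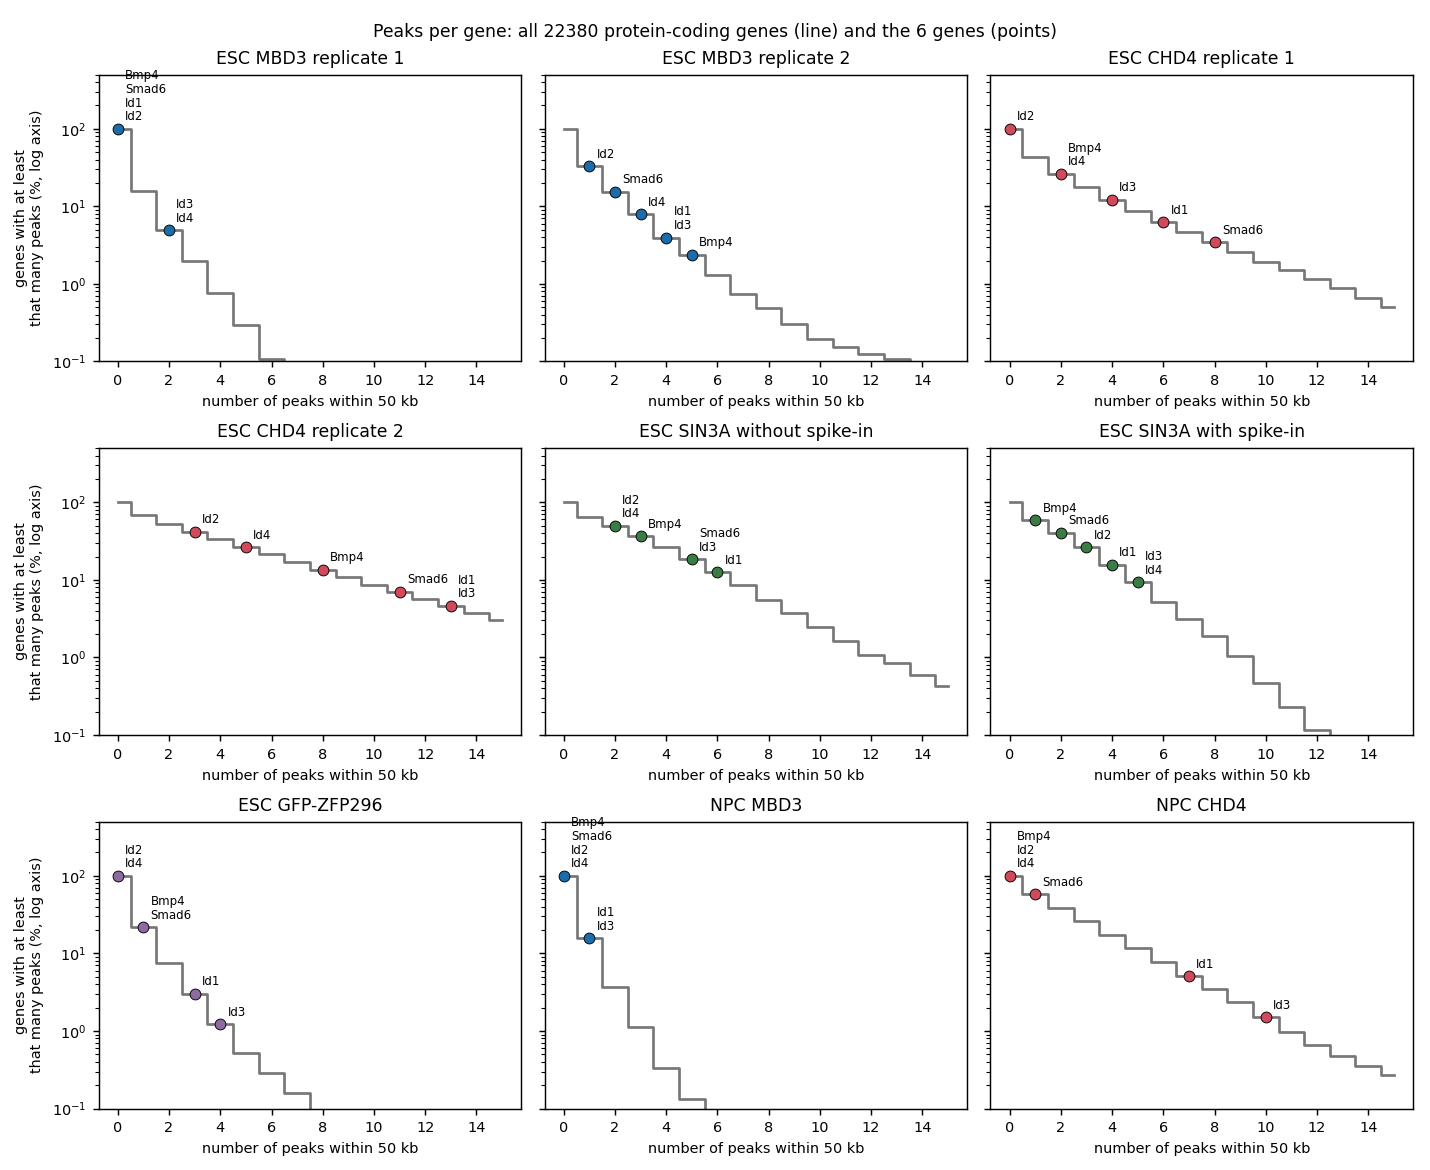
For each list, the line gives the percent of all 22380 protein-coding genes (log axis) with at least the number of peaks on the horizontal axis within 50 kb, and the labelled points place the 6 genes on it. Id3 lies farthest to the right for ZFP296 (4 peaks) and NPC CHD4 (10 peaks), while Id2 lies at 0 in 5 lists.

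ESC and NPC sites were then set side by side, since the study asks how NuRD binding changes in differentiation. Of the 3 ESC MBD3 sites around the 6 genes, 1 overlapped an NPC MBD3 peak, at the E2f2 start, against 4.38% of all ESC MBD3 sites. Of the 19 ESC CHD4 sites, 4 overlapped an NPC CHD4 peak, 2 at Id1 and 2 at Id3, against 13.1% of all ESC CHD4 sites. Of these 4, only the site at -7.72 kb of Id1 was nearest to a member's own start, since the other Id1 site was nearest to Cox4i2 and both at Id3 lay at the start or in an intron of E2f2. In the other direction, 4 of 18 NPC CHD4 peaks overlapped an ESC CHD4 site, against 5.42% of that list. Both NPC factors were measured in 1 list each, so these overlaps have no replicate check in NPCs. At Bmp4, Id2 and Id4 there was no NPC peak to compare, which says that no peak passed the authors' threshold there and not that the proteins were absent.

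ZFP296 peaks numbered 9, with 4 at Id3, 3 at Id1 and 1 each at Smad6 and Bmp4. Of these, 0 overlapped an MBD3 site of both replicates, against 20.1% of the whole ZFP296 list, 3 overlapped a CHD4 site (39.9%) and 1 a SIN3A site (17.9%). With single lists, 4 overlapped MBD3 replicate 2 (49.0%), 6 overlapped CHD4 replicate 2 (66.1%) and 5 overlapped SIN3A without spike-in (38.4%). The highest of the 9 was the +3.49 kb peak of Id3, and 1 peak, at -5.92 kb of Id1, overlapped no other list. With 9 peaks, single peaks move these shares widely.

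The strings were counted in the central 300 bases of each peak. GGCGCC was present in 36 of the 170 peaks (21.2%), against 13.3% of 104717 peaks of all lists and 13.1% when the lists were weighted as they contribute to the 170. It was present in 17 of 43 SIN3A peaks around the 6 genes, 7 of 23 without and 10 of 20 with spike-in, and in 26.4% and 30.0% of the SIN3A lists as a whole. In MBD3 replicate 2 it was present in 0 of 19 peaks and in 4.13% of the list, in MBD3 replicate 1 in 0 of 4 (9.95%) and in ZFP296 in 0 of 9 (5.01%). CHD4 peaks held it in 3 of 22 and 10 of 53 cases, against 7.60% and 10.2% of the lists. By gene, it was present in 12 of the 44 Id1 peaks and in 3 of the 9 Id2 peaks, and in 0 of the 20 Bmp4 peaks. Peaks that overlap across lists share their sequence, so these counts repeat the same DNA.

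CAGAC was present in 90 of the 170 peaks (52.9%) and in 51.8% of all peaks. E boxes were present in 147 (86.5%) against 76.7%, SOX2 strings in 8 (4.71%) against 4.79%, STAT strings in 14 (8.24%) against 7.87% and the octamer in 2 (1.18%) against 2.65%. AP-1 strings were present in 22 (12.9%), below the 14.5% of all peaks but above the 10.4% found when the lists were weighted as before. The lists themselves differed, with 47.3% of NPC CHD4 and 53.6% of NPC MBD3 peaks but 2.75% to 6.58% of peaks in the ESC lists. Around the 6 genes, 5 of 18 NPC CHD4 peaks (27.8%) and 1 of 2 NPC MBD3 peaks held an AP-1 string. Among the ESC lists at the members, the AP-1 string was present in 5 of 22 and 5 of 53 peaks of CHD4 replicates 1 and 2 and in 0 of 4 and 3 of 19 of MBD3 replicates 1 and 2. It was present in 1 of 23 SIN3A peaks without and 0 of 20 with spike-in, and in 2 of 9 ZFP296 peaks.

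**Figure D4:**
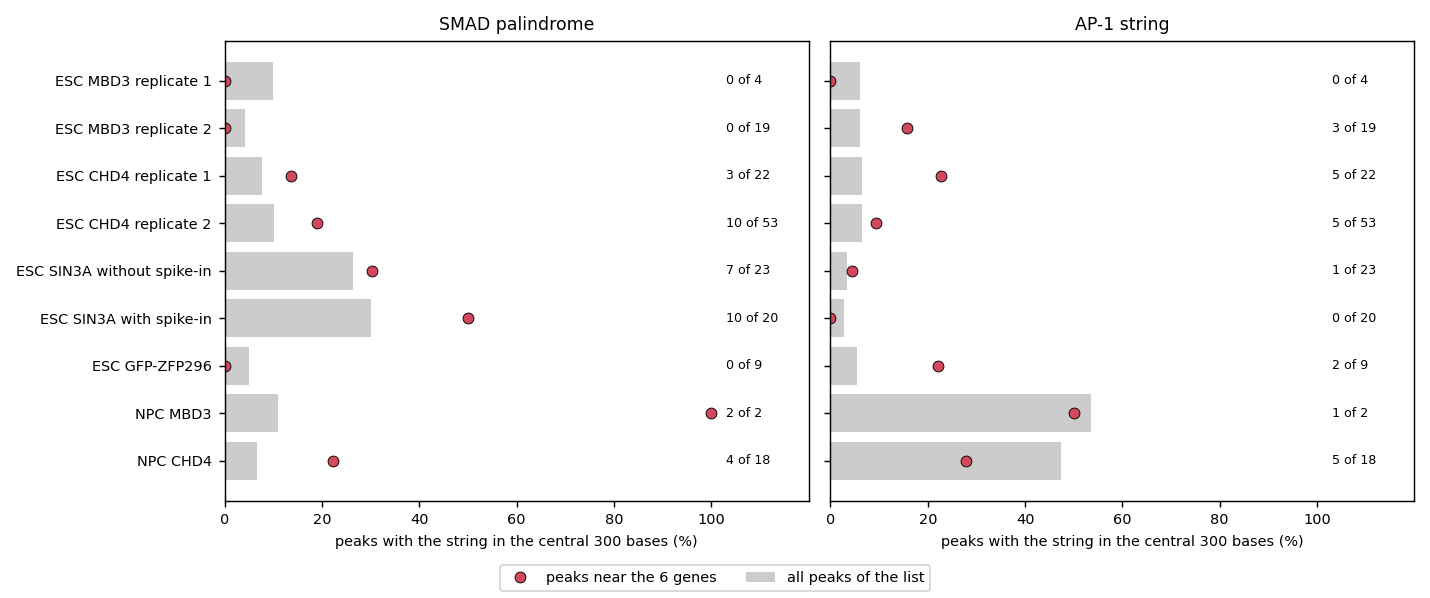
Grey bars give the percent of all peaks of a list, and red points the percent of its peaks around the 6 genes, with GGCGCC (left, SMAD palindrome) or the AP-1 string (right) in the central 300 bases, and the numbers at the right give the counts. SIN3A lists hold the palindrome most often among the ESC lists, and the AP-1 bars of the NPC lists reach 47.3% and 53.6%.

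RefSeq promoters (250 bases before to 50 after the start, GRCm38.p6) matched 5 of the 6 genes, all but Id1. GGCGCC was present in the promoters of Id2 and Id4, against 11.9% of 32851 promoters, and CAGAC in that of Id3, against 49.6%. E boxes were present in those of Bmp4, Id2 and Smad6, against 72.3%, and the AP-1, SOX2, STAT and octamer strings in none of the 5. SIN3A peaks with spike-in lay upstream of the starts of both Id2 and Id4, centred at -0.32 and -0.31 kb, and these peaks covered neither start. Their overlap with the strings in the promoters was not examined.

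The other 41 genes of the BMP pathway list were counted in the same way, without scaling for the length of the gene body. NPC CHD4 peaks were present at 36 of them (87.8%, against 57.9% of all genes), with 14 at Tcf12 and 9 at Tcf3, which encode E proteins that ID proteins bind, 13 at Runx2, a BMP target in bone, and 9 at the receptor gene Acvr1. ESC CHD4 peaks were present at 17 genes in replicate 1 (41.5%, against 43.0% of all genes) and at 31 in replicate 2 (75.6% against 67.6%). SIN3A peaks were present at 32 genes without (78.0% against 65.1%) and at 28 with spike-in (68.3% against 59.2%). MBD3 peaks were present at 6 and 12 genes (14.6% against 15.8% and 29.3% against 33.2%). ZFP296 and NPC MBD3 peaks were present at 7 genes each (17.1%), against 21.9% and 15.7% of all genes. Of the 8 ligand genes, 6 had NPC CHD4 peaks (75.0%). ESC CHD4 peaks were present at 2 of them in replicate 1 (25.0%) and at 5 in replicate 2 (62.5%). Among them Bmp7 had 14 and 22 ESC CHD4 peaks and 0 in NPCs. The member Bmp4 had 2 and 8 and also 0 in NPCs. Of the 11 inhibitor genes, Smad7, the other inhibitory SMAD, had peaks in all 9 lists, with 4 and 7 for MBD3, 7 and 11 for CHD4, 15 and 9 for SIN3A, 4 for ZFP296, 1 for NPC MBD3 and 7 for NPC CHD4. Smad6 had peaks in 7 lists.

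**Figure D5:**
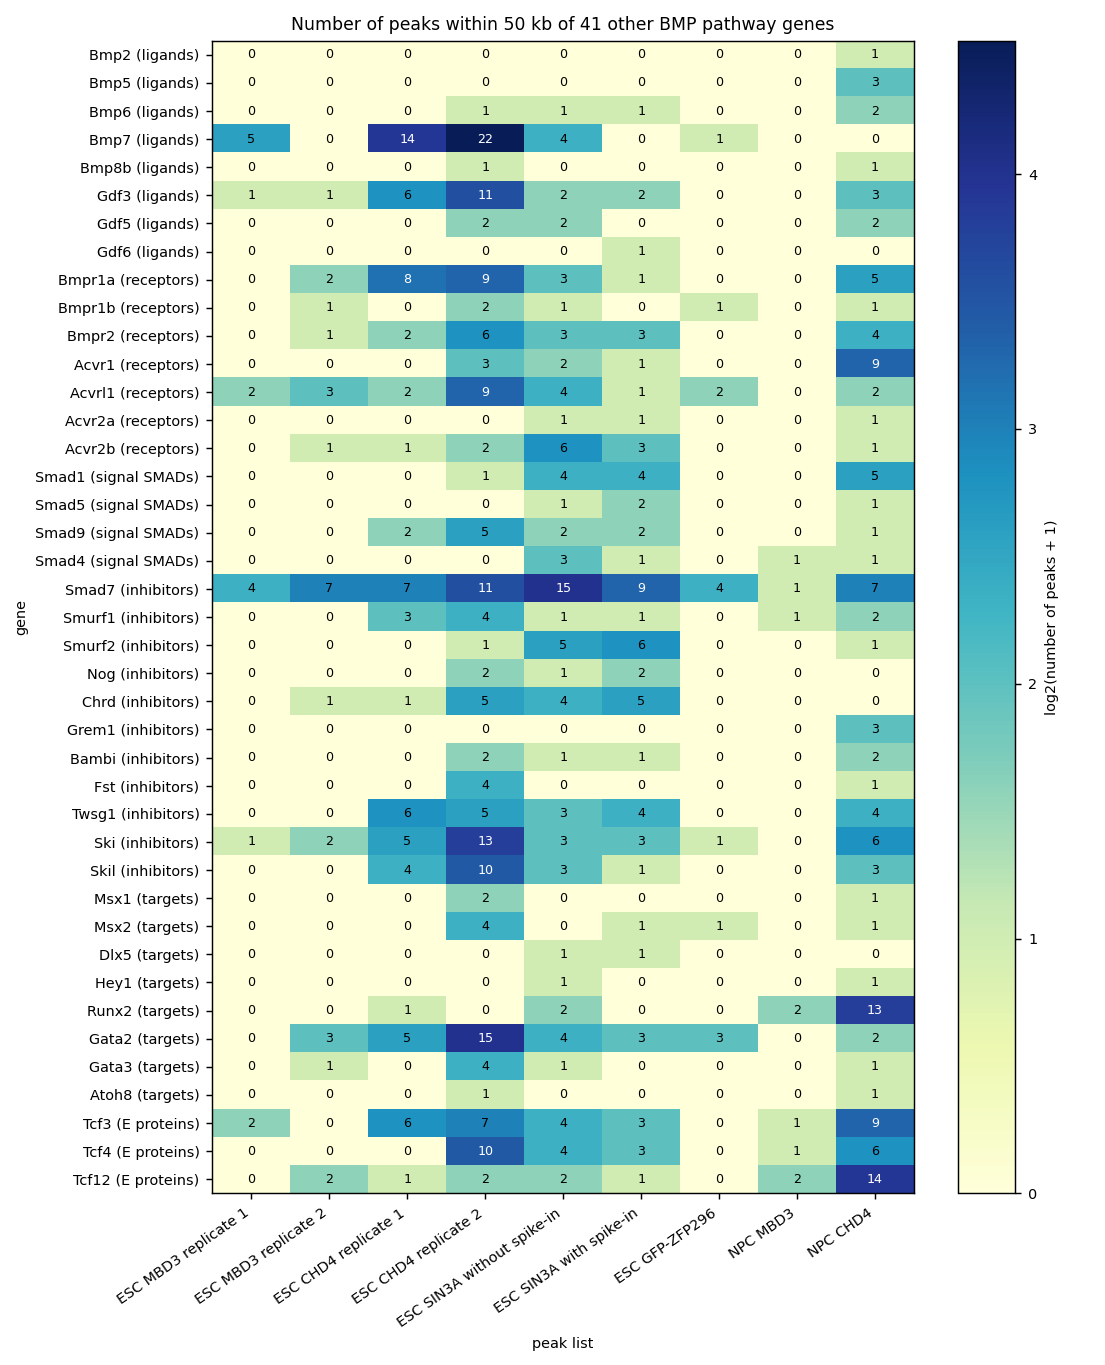
Each cell gives the number of peaks of 1 list (columns) within 50 kb of 1 of 41 other BMP pathway genes (rows, with their role), coloured by log2(number + 1). Smad7 has peaks in every column, and the NPC CHD4 column is above 0 for 36 of the 41 genes.

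The protein-coding genes whose 9 counts were most like those of each member were found by Euclidean distance between log2(count + 1) values, among genes over 1 Mb away. Id1 was nearest to Cuedc1 (0.96) and Mtss1 (1.08), and Id3 to Snai1 (0.66) and Mcl1 (0.97). Id2 had the same 9 counts as Slc3a1 (0.00), and the next distance, 0.32, was shared by 3 genes, among them Kcnd3. Id4 was nearest to Stmn2 (0.92) and Ripk3 (1.01), Smad6 to Pla2r1 (0.74) and Gnpda1 (1.04), and Bmp4 to 1700016M24Rik (0.84) and Xpnpep1 (0.89). Distances over 9 counts of mostly small numbers describe likeness in these lists only.

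The authors' values were used within a list, and the members' peaks did not reach the highest values of any list. In SIN3A with spike-in, for example, they ran from 3.06 to 12.4 in a list that ran from 3.02 to 189, and in CHD4 replicate 1 from 3.70 to 15.2 in a list that ran from 3.08 to 141. Around the 6 genes, 13 of 19 peaks of MBD3 replicate 2 and 28 of 53 of CHD4 replicate 2 were above the median of their list, but 7 of 22 of CHD4 replicate 1, 8 of 23 and 6 of 20 of SIN3A without and with spike-in, and 7 of 18 of NPC CHD4. Binding levels could not be set against each other across lists, because no read counts per peak were analysed here.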

How the data were processed

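ChIP-seq reads were mapped by the authors to mm9 with BWA, filtered to uniquely mapped reads of sufficient quality without duplicates, and the peaks of every sample were then called with MACS 2.0 against input from the same line, without pooling of replicates. The deposited peaks have a −log10 value, and whether a p-value or an adjusted value lies behind it is not given in the sources used here. Peak names of 7 lists mention 17000000 reads and those of both SIN3A lists none, so depth per sample is otherwise unknown, and no interval or floor could be given. Groups came from the sample titles.

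The members and lists of genes were chosen with earlier results of these data known. Peak midpoints were assigned to protein-coding GENCODE vM1 gene bodies, and where a symbol had several entries the longest was used. Sites are peaks of the shorter list that overlap the longer by at least 1 bp. Regions are overlapping peaks of any list, merged. No test was made, since most groups hold 1 list. Named are, per gene and list, the peak of highest value, regions with 5 or more lists or an NPC MBD3 peak, and the 2 genes of most similar counts. Strings were searched in 300 bases around the midpoint of the 104717 peaks for which the reference held that window. Of the peaks left out, 95 were on contigs with no reference sequence, and 0 peaks lay beyond the reference length. Analyses used Python 3.11.15, numpy 2.4.6, pyfaidx 0.9.0.4 and matplotlib 3.10.9. The counting was tested on simulated data. Alternatives changed the window, threshold, list size, overlap and replicates.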

Additional observations from a re-analysis of the deposited data

How the results depend on the processing

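Of 79 values under the alternatives, 46 stayed within 1.5 times of the reported count and 33 moved further. With a window of 20 kb the peaks around the 6 genes numbered 9 in MBD3 replicate 2, 11 and 27 in CHD4 replicates 1 and 2, 14 in SIN3A without spike-in, 4 for ZFP296, 0 for NPC MBD3 and 5 for NPC CHD4, and with 100 kb they numbered 14 for ZFP296, 4 for NPC MBD3 and 31 for NPC CHD4. With every list reduced to its 2304 peaks of highest value, 9 peaks remained in MBD3 replicate 2, 4 and 5 in CHD4 replicates 1 and 2, 4 and 0 in SIN3A without and with spike-in, 5 for ZFP296 and 2 for NPC CHD4. With an authors' value of at least 5, NPC MBD3 kept 1 peak. Counting a peak of either list as a site gave 20 MBD3, 55 CHD4 and 32 SIN3A sites, and ZFP296 overlaps with 5, 7 and 6 of its 9 peaks. Midpoints within 500 bp gave 2 ZFP296 peaks with SIN3A sites. SIN3A alone without or with spike-in gave 23 and 20 peaks. Leaving out either replicate gave 4 to 19 MBD3 peaks and 22 to 53 CHD4 peaks, and 4 to 8 CHD4 overlaps with NPC. The lower numbers were counted with fewer peaks or smaller windows, and what set the size of each drop was not tested.

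As alternatives chosen after seeing the data, without CHD4 replicate 2 the regions with 5 or more lists fell from 6 to 2. Taking only peaks nearest to a gene's own start left 120 peaks in 58 regions, of which 4 held ESC and NPC peaks and 5 held NPC peaks only, and 4 had 5 or more lists. No paired analysis was possible because the results come from no test.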
